A study of Mus musculus with 4 samples.

Results

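The Hox genes were described as a group in mouse inner ear organoids, across libraries, neuron-like cells, mesenchyme-like cells, otic cells and Ccer2-rich cells. Members were all genes whose symbol is Hox followed by a cluster letter a to d and a number. The 38 members described here are among 32289 genes in the tables. The rule uses symbols and no measured value, but it was set with earlier results of these data known. The organoids were grown from mouse embryonic stem cells of the line Atoh1-nGFP, in which a nuclear green fluorescent protein reports Atoh1, a transcription factor that starts hair cell formation. All 4 libraries came from this line, with no untreated or genetic control, and each group is 1 library: day 16, day 20, day 21 cells with high GFP signal (GFP high) and day 21 cells with low GFP signal (GFP low). Whole organoids were dissociated, sorted on GFP and loaded for droplet sequencing. The gate used at days 16 and 20, and the number of organoids pooled, were not given in the sources used here.

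Hox genes encode homeodomain transcription factors that give cells of the embryo their position along the axis from hindbrain to tail. They lie in 4 clusters (Hoxa, Hoxb, Hoxc and Hoxd), and genes at the same place in different clusters form numbered paralogue groups. Low-numbered groups are switched on in the hindbrain and high-numbered groups farther back in the spinal cord and trunk, while forebrain, midbrain and the front of the hindbrain lack Hox transcripts and are marked by genes such as Otx2, En1 and En2. Hox proteins bind DNA together with PBX and MEIS proteins, and retinoic acid and CDX factors help to switch the clusters on. In this text groups 1 to 4, 5 to 8 and 9 to 13 are set apart as front, middle and rear bands.

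Stretches just before the start sites of 4 members are printed because the results below turn on these genes: Hoxb1, Hoxa2 and Hoxb4 of the front band and Hoxb8 of the middle band. The RefSeq table of the GRCm38.p6 build held 24 start sites of 22 of the 38 members. Capitals mark matches, on either strand, to TGATNNAT (a site for a PBX and HOX pair), TGACAG (MEIS), AGGTCA (a nuclear receptor half-site, as in retinoic acid response elements) and TTTATNG (CDX).
Hoxb1, chr11:96365508-96365751, + strand: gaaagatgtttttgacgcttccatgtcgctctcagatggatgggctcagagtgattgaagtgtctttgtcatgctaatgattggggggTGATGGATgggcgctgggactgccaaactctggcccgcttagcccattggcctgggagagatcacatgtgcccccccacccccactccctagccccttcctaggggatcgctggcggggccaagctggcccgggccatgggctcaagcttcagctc
Hoxa2, chr6:52164832-52165081, - strand: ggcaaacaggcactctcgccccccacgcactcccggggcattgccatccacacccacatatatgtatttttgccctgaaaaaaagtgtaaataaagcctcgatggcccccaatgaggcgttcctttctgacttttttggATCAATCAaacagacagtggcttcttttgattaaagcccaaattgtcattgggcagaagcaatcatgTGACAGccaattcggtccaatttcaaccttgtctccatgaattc
Hoxb4, chr11:96318017-96318266, + strand: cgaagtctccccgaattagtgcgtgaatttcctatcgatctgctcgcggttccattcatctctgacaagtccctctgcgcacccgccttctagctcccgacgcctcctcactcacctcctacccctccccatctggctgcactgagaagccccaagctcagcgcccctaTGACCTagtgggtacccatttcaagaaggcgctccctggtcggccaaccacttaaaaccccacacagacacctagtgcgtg
Hoxb8, chr11:96281655-96281904, + strand: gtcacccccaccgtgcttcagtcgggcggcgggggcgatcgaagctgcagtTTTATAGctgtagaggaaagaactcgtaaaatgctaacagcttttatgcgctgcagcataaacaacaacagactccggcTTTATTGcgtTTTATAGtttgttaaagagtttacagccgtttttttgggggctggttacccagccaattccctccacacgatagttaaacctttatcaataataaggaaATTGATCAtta

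The Hoxb8 window held 3 matches to TTTATNG and 1 to TGATNNAT, the Hoxb1 window 1 match to TGATNNAT, the Hoxa2 window 1 each to TGATNNAT and TGACAG, and the Hoxb4 window 1 to AGGTCA. No matches to different motifs overlapped in these windows. Over the 250 bases before all 24 Hox start sites, TGATNNAT was found in 4 windows (16.7%), against 7.68% of all 32851 windows in the table. AGGTCA was found in 6 (25%, against 14%), TGACAG in 2 (8.33%, against 15.9%) and TTTATNG in 2 (8.33%, against 9.81%). The Hox windows had a median GC content of 58.6%, against 52.4% over all windows. A match is a run of letters and not a shown binding site.

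The kept cells numbered 3376, 4348, 3435 and 3686 at day 16, day 20, GFP high and GFP low, with 57805201, 42253859, 107258487 and 93590942 unique molecular identifiers (UMIs, counted molecules) and medians of 15248, 8833, 28865 and 22213 UMIs per cell. Median mitochondrial shares ran from 0.923% at day 20 to 5.06% in GFP high. Levels are counts per 1e+06 UMIs (CPM), from UMIs summed over cells and divided by all UMIs of those cells. CPM counts molecules, so it was not divided by gene length, and capture may differ between genes. Intervals are 95% and cover counting error only: with 1 library per group no test across samples can be made, and no p-values are given. The labels call the cells otic lineage, but other classes were common: hair-cell-like, supporting-cell-like and otic-epithelium-like cells numbered 193, 23 and 40 at day 16, 148, 16 and 45 at day 20, 2406, 222 and 274 in GFP high, and 840, 571 and 453 in GFP low. Between 7 and 17 barcodes of each library also occurred in another library. Exons of Hoxc5 and Hoxc10 share 166 bases on the same strand, and exons of Hoxd3 and Hoxd4 share 388, so their counts may be split or lost; the use of strand in counting was not stated, and exons of 8 members face antisense transcripts.

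Summed over the 38 members, Hox transcripts reached 16.1 CPM at day 16 (interval 15 to 17.1), 34.2 at day 20 (32.5 to 36.1), 64.6 in the GFP high library (63 to 66.1) and 205 in the GFP low library (203 to 208). GFP low stood highest and day 16 lowest, and no intervals overlapped. At least 1 Hox UMI was found in 9.18%, 9.45%, 9.61% and 29.7% of cells in the same order. The 10 richest cells held 32.7%, 28.4%, 28.0% and 10.3% of a library's Hox UMIs, so that the first 3 libraries rest on few cells. Without those 10 cells the levels were 10.9, 24.6, 46.6 and 185 CPM. In a sum over all cells, fewer cells of a type and less RNA per cell cannot be told apart.

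**Figure D1:**
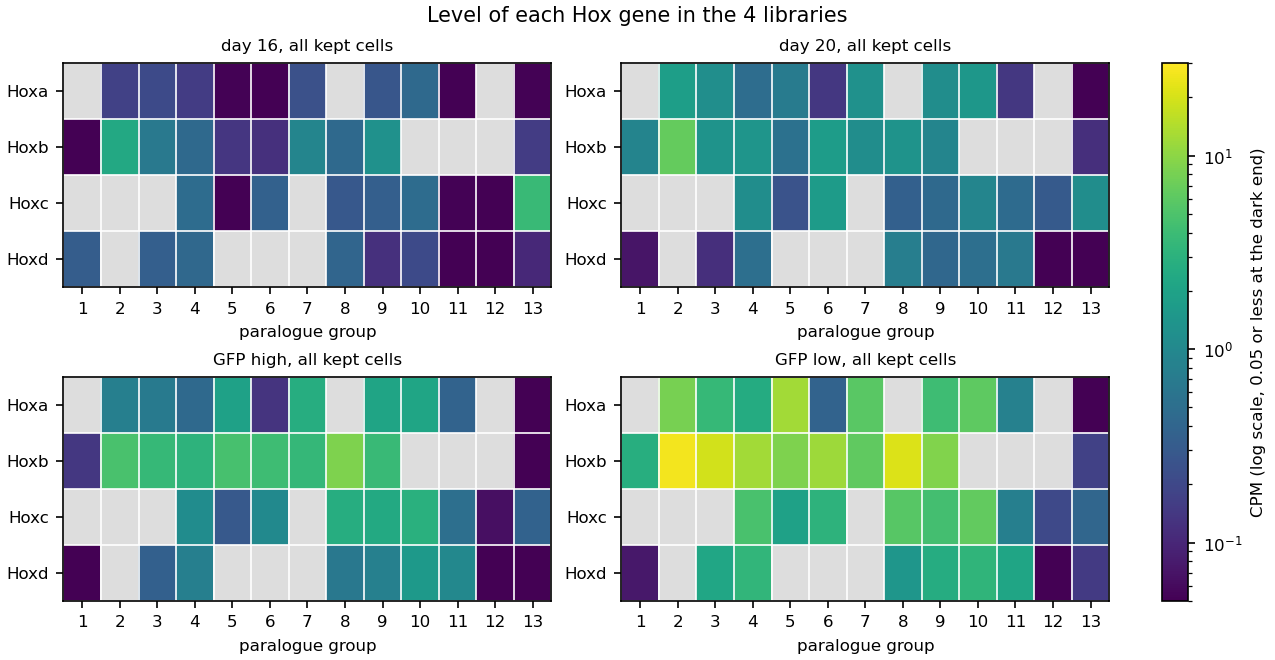
Level of each Hox gene in the 4 libraries, in CPM on a logarithmic colour scale, with the paralogue group on the x axis and the Hox cluster on the y axis. Grey squares hold no member described here. GFP low is brightest across groups 2 to 9 of Hoxb, and Hoxc13 is the brightest square at day 16 with 3.79 CPM.

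The front band was led by Hoxb2, a gene of hindbrain segments, which stood at 2.40 CPM on day 16, 6.58 CPM on day 20, 4.84 CPM with high GFP and 26.6 CPM with low GFP. Hoxb3 stood at 0.657, 1.33, 3.59 and 19.3 CPM in the same order. Hoxb4 stood at 0.450, 1.42, 3.1 and 12.4 CPM. Each of these genes was highest in GFP low and lowest at day 16. Hoxa2, which patterns the second branchial arch and hindbrain, was at 0.173, 1.80, 0.783 and 8.02 CPM, and here day 20 lay above GFP high.

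In the middle band Hoxb8, a gene of the spinal cord and trunk, was at 0.450, 1.35, 8.77 and 21.2 CPM in the same order. Hoxa5 was at 0.0519, 0.710, 1.93 and 12.3 CPM, and its day 16 value is 3 UMIs. Hoxb6 was at 0.121, 1.70, 4.13 and 11.8 CPM. For these genes the libraries kept the order day 16, day 20, GFP high, GFP low. Hoxb5 was at 0.138, 0.544, 4.62 and 8.78 CPM and Hoxb7 at 0.917, 1.14, 3.50 and 6.37 CPM. For Hoxb7 the intervals of days 16 and 20 overlapped.

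The rear band among the 12 most abundant members comprised Hoxb9, Hoxc10 and Hoxa10, which mark thoracic to lumbar levels in the embryo. Hoxb9 was at 1.26, 0.923, 3.80 and 9.03 CPM, with overlapping intervals at days 16 and 20. Hoxc10 was at 0.484, 0.923, 2.90 and 6.44 CPM and Hoxa10 at 0.450, 1.49, 2.16 and 6.13 CPM. Again GFP low was highest for each. The other 26 members stayed below 6 CPM in every library. Hoxd12 had 0 UMIs at both days 16 and 20, which allows up to 0.0519 and 0.0710 CPM, and 4 and 3 UMIs in the day 21 libraries.

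Members are called higher or lower below when 2 libraries differ by 2-fold or more in CPM and the interval of the ratio leaves out 1, which is a size rule and no test. Of the 38 members, 0 were higher in GFP high than in GFP low and 29 were lower. By the same rule 7.10% of 12402 genes were higher and 9.93% lower, counting genes that reach 5 CPM in at least 1 of the libraries. Of the 14 members at 5 CPM or more, 12 were lower and Hoxb5 and Hoxb7 were neither. The median log2 ratio, computed on CPM plus 1, was -1.18 over those 14 members and -0.06 over all genes at that level. Among front members, Hoxb1 was 19.9-fold lower in GFP high (11.8 to 36.0), Hoxa2 was 10.2-fold lower (8.17 to 13) and Hoxb2 was 5.51-fold lower (5.01 to 6.06). Of the middle band Hoxa5 was 6.38-fold lower (5.50 to 7.44) and Hoxb8 2.42-fold lower (2.23 to 2.61), and of the rear band Hoxc10 was 2.22-fold lower (1.93 to 2.56). The folds of the bands thus overlapped, and the front member Hoxd1, with 5 and 7 UMIs, was neither higher nor lower. The libraries differ in their cells: neuron-like cells made up 224 of 3435 cells of GFP high and 1121 of 3686 of GFP low. With a ratio of 3 or more, 16 members were lower.

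Between day 20 and day 16, 23 members were higher at day 20 and 3 were lower. Of 11876 genes at 5 CPM or more in at least 1 of the libraries, 5.49% were higher and 7.50% were lower. The 3 lower of 38 members are near the latter share, but all 3 lay below 5 CPM. Hoxb2, at 6.58 against 2.40 CPM, was the 1 member at 5 CPM or more, and it was higher. The counts over 38 members and these shares are thus not at a like level. Hoxb6 was 14.1-fold higher (6.49 to 36.2), Hoxa2 10.4-fold higher (5.36 to 22.6) and Hoxb8 3-fold higher (1.86 to 4.97). The lower members were Hoxc13, which is known from hair and nail, Hoxd1 and Hoxd3. Hoxc13 stood at 3.79 CPM at day 16 and 1.14 at day 20, 3.34-fold lower (2.43 to 4.66). These counts rest on few cells: without the 10 cells richest in each member, 14 members were higher at day 20 and 1 was lower.

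Classes of cells were found by clustering with every Hox gene and every other transcript of the Hox loci left out, so that the Hox level played no part in the grouping. Neuron-like cells held 13 of 13 neuron markers at 20 CPM or more in every library. Hair-cell-like cells, whose 5 clusters raised 12 to 14 of 14 hair cell markers, served as a class of low Hox level to set beside the others. Because they were taken as such, a higher level in other classes was partly fixed by that choice. In their cluster 10, 12 of 410 GFP high cells had 5 or more Hox UMIs. The part of free RNA from the droplets in their Hox UMIs was not tested. Neuron-like cells held 36.4%, 49.3%, 76.0% and 79.7% of a library's Hox UMIs in the order day 16, day 20, GFP high, GFP low. Their summed Hox level was 16 CPM on day 16 (14.4 to 17.8), 105 CPM on day 20 (97.7 to 113), 1018 CPM in the GFP high library (990.4 to 1046) and 615 CPM in the GFP low library (605 to 625). Hair-cell-like cells stayed at 6.85, 7.16, 5.25 and 8.64 CPM. After each cell was thinned to 3000 UMIs, a Hox UMI was found in 1.39%, 6.5%, 32% and 38.4% of neuron-like cells (5.01%, 9.31%, 39.7% and 53.2% before thinning). In hair-cell-like cells the thinned shares were 1.59%, 1.39%, 1.05% and 1.82%. The day 16 share in neuron-like cells thus did not stand above that of hair-cell-like cells. The day 20 interval (4.46 to 9.10) just overlapped that of hair-cell-like cells (0.169 to 4.93), and both day 21 shares lay clear of theirs. Median depths of neuron-like cells were 16142, 9034, 20935 and 20975 UMIs, and of hair-cell-like cells 32447, 17031, 30456 and 25197.

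**Figure D2:**
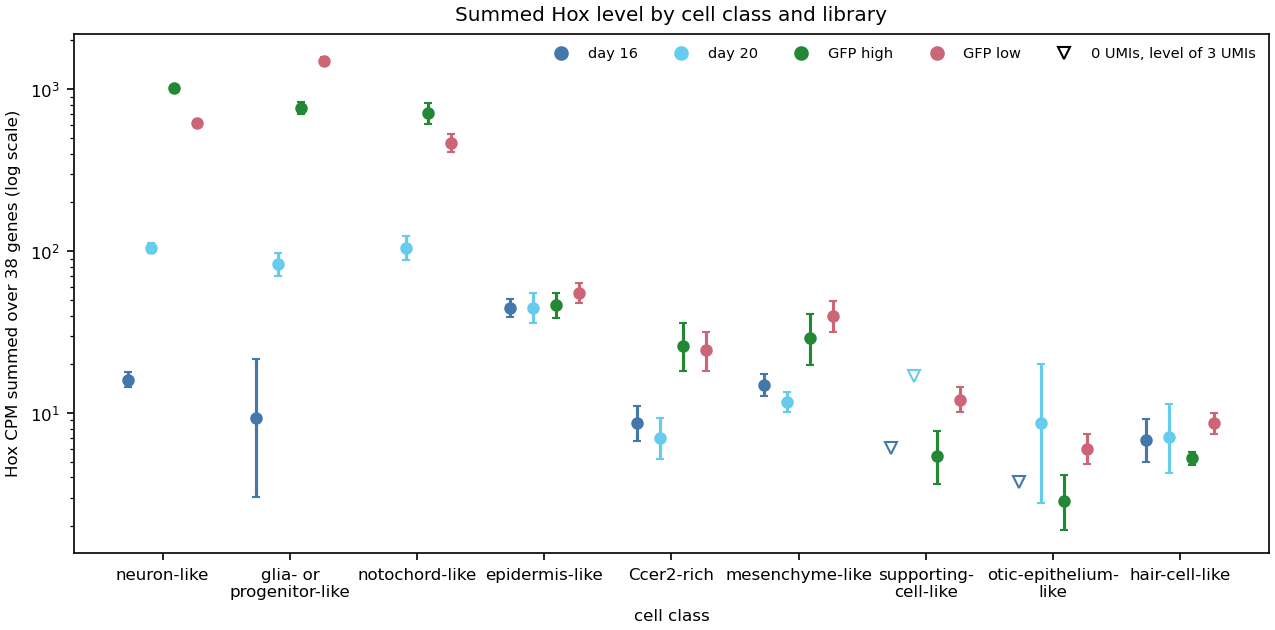
Summed CPM of the 38 Hox genes by cell class (x axis, logarithmic y axis), with 1 point per library and exact Poisson 95% intervals. Open triangles mark the level that 3 UMIs would give in classes with 0 Hox UMIs, and classes with fewer than 10 cells in a library are left out. Neuron-like, glia- or progenitor-like and notochord-like cells of the day 21 libraries stand between 464 and 1502 CPM, and hair-cell-like cells stay below 10 CPM in all 4 libraries.

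Within neuron-like cells the members did not all differ in the same direction between the GFP gates. Of the 38 members, 16 were higher in GFP high and 2 were lower, and of the 29 at 5 CPM or more, 15 and 2. Of 11398 genes at that level, 4.29% were higher and 2.43% were lower (6.72% in either direction). In the middle band Hoxb8 stood at 161 CPM in GFP high and 73.4 in GFP low, 2.20-fold higher (2.02 to 2.39 by counting). Hoxb7 stood at 63.3 against 20.2 CPM and Hoxa7 at 39.1 against 13.5. In the rear band Hoxc9 stood at 39.9 against 9.71 CPM, Hoxa9 at 33.7 against 9.71 and Hoxc10 at 42.8 against 17.1. Hoxa5 of the middle band stood at 28.1 against 37.1 CPM and Hoxc5 at 2.52 against 4.54, neither past the rule. No front member was higher by the rule: Hoxb4 stood at 46.1 against 38 CPM, Hoxb2 stood at 75.7 against 85.8 CPM, Hoxb3 at 60 against 64.8, Hoxa2 at 13.2 against 26, and Hoxb1 at 1.93 against 8.03. The lower members were Hoxb1 and Hoxa4, and 1 of the 16 higher members, Hoxd12, had only 4 against 0 UMIs. These values rest on few GFP high cells, since 10 of its 224 neuron-like cells held 36% of the Hox UMIs, against 12.8% in GFP low. Without the 10 richest cells of each member in each library, 0 members were higher and 10 were lower, and that step removes a larger part of the smaller library.

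Neuron-like cells of day 20 held more Hox transcript than those of day 16. There 25 of 38 members were higher and 0 were lower, where 4.06% of 11048 genes were higher and 4.35% were lower (8.41% in either direction). All 8 members at 5 CPM or more were higher. Hoxb2 stood at 20.8 CPM against 1.52, Hoxb6 at 10.3 against 0.237 and Hoxa2 at 7.53 against 0.237. Hoxb8 stood at 6.94 CPM against 0.948. At day 16, 9 of 1178 neuron-like cells had 5 or more Hox UMIs and 10 cells held 81.4% of the Hox UMIs. At day 20 these were 32 of 623 cells and 56.7%. Without the 10 richest cells of each member, 3 members were higher at day 20.

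The neuron-like class was 5 clusters, and their share of the class differed between libraries. Cluster 3, with Lhx9 and Sst among its leading genes, held 433, 219, 61 and 273 cells in the same order of libraries. Cluster 8, with the homeobox genes Otp and Lhx1, held 9, 72, 36 and 437. Cluster 14, led by Calb1, Car8 and Pcp2, genes of cerebellar Purkinje cells, held 311, 92, 12 and 83. Cluster 7, with Slc32a1, the vesicular transporter of inhibitory neurons, held 221, 213, 22 and 136, and cluster 11, with Neurod1 and Lhx2, held 204, 27, 93 and 192. The largest cluster was thus 3 at days 16 and 20, 11 in GFP high and 8 in GFP low. A further cluster of 155, 48, 0 and 4 cells raised 10 of 13 neuron markers but had a median of 3817 UMIs, and was left unnamed and outside the class.

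Cluster 8 carried the front band. Its Hox level was 204 CPM on day 20 (179 to 232), 499 CPM with high GFP (451 to 551) and 495 CPM with low GFP (482 to 509), and the day 21 intervals overlapped. Groups 1 to 4 made up 98.3%, 97.2% and 81.2% of its Hox UMIs in those libraries. Hoxb2 stood at 101, 237 and 148 CPM, Hoxb3 at 24.9, 72.4 and 85 CPM, and Hoxa2 at 30, 33 and 52 CPM. Hoxb1, whose transcript marks the fourth hindbrain segment, was at 18, 10.2 and 17.4 CPM. Hoxb8 stood at 10.7 CPM in GFP low. In every library with 10 or more of its cells, then, the cluster was led by Hoxb2.

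Cluster 3 held all 3 bands. Its level was 31.3 CPM on day 16 (27 to 36.2), 252 CPM on day 20 (229 to 277), 1863 CPM with high GFP (1789 to 1938) and 1303 CPM with low GFP (1271 to 1337). In GFP low 30% of its Hox UMIs came from groups 1 to 4, 48.1% from groups 5 to 8 and 21.9% from groups 9 to 13. Hoxb8 led at 262 CPM in GFP high and 209 in GFP low, while Hoxb6 led at day 20 with 39.9 CPM. At day 16, 10 cells held 89.8% of the cluster's Hox UMIs.

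Cluster 14 differed most between libraries, at 2.52 CPM on day 16 (1.44 to 4.10), 15.5 CPM on day 20 (10 to 22.8), 5942 CPM with high GFP (5666 to 6229) and 1404 CPM with low GFP (1355 to 1455). The GFP high value is from 12 cells, and each of the 12 had 5 or more Hox UMIs. Hoxb8 stood there at 1136 CPM and Hoxb7 at 604 CPM. Groups 1 to 4 made up 8.83% of Hox UMIs in GFP high and 10.1% in GFP low. The cluster's defining genes were near absent in those 12 cells: Calb1 and Car8 at 3.43 CPM each and Pcp2 at 0.

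Cluster 7 followed the same order of libraries, at 2.29, 4.94, 1783 and 333 CPM, and these values too rest on few cells. All of the GFP high Hox UMIs lay in 10 or fewer of 22 cells, 10 of 136 cells held 97.3% in GFP low, and the day 20 value is 9 UMIs from 1 cell. Cluster 11 stayed low at 16.4, 11.4, 6.26 and 55.3 CPM. In GFP low 9 of its 192 cells had 5 or more Hox UMIs.

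**Figure D3:**
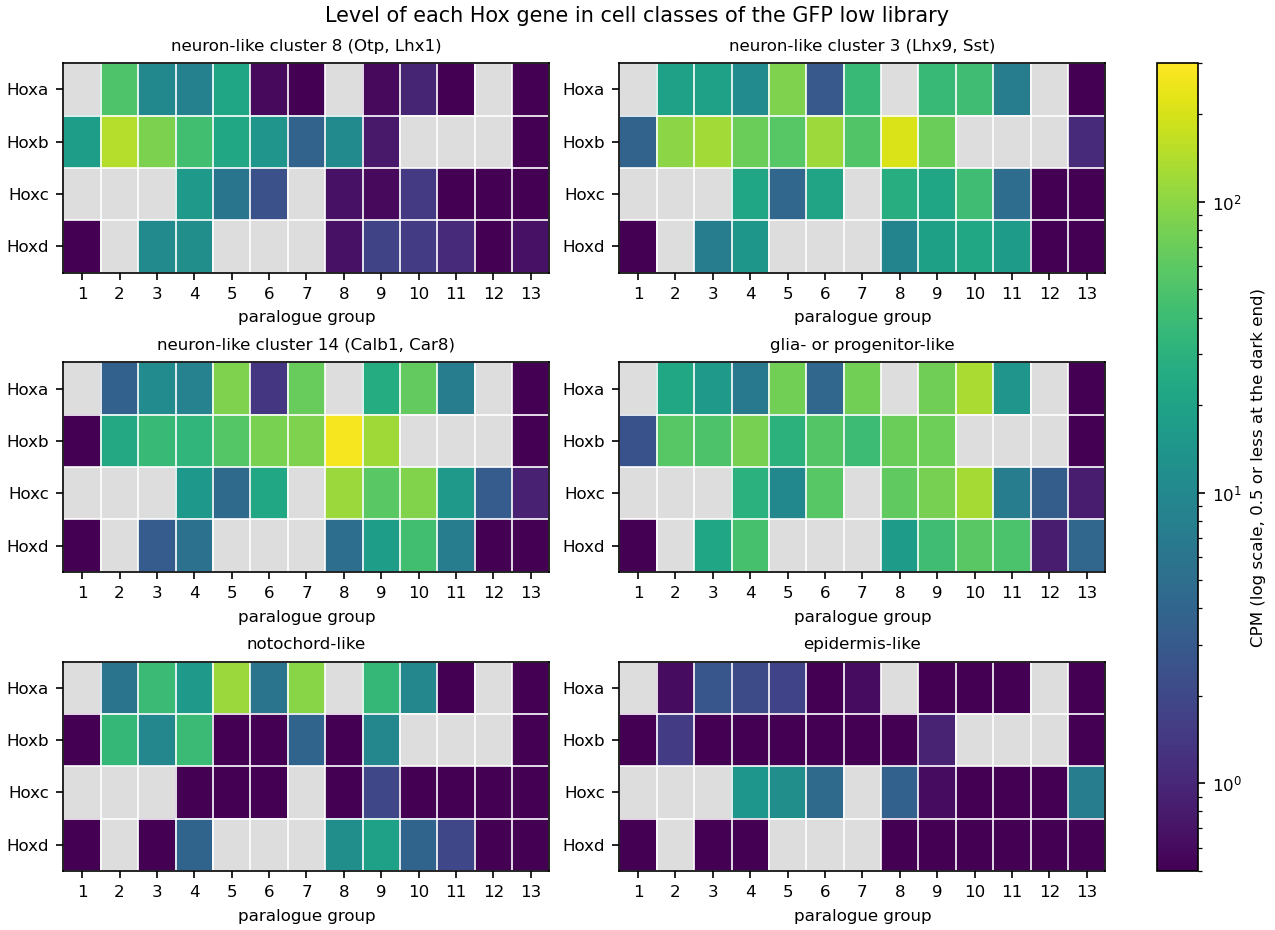
Level of each Hox gene in 6 cell classes of the GFP low library, in CPM on a logarithmic colour scale, with the paralogue group on the x axis and the Hox cluster on the y axis. Grey squares hold no member described here. Cluster 8 is bright in groups 1 to 5, cluster 14 and the glia- or progenitor-like cells in groups 5 to 10, notochord-like cells in Hoxa, and epidermis-like cells in Hoxc.

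Single cells differed in how far back their Hox genes reached. Of 403 neuron-like cells of GFP low with 5 or more Hox UMIs, 266 drew 80% or more of them from groups 1 to 4, 75 drew 20% or less, and 62 lay between. In GFP high the numbers were 32, 29 and 8 of 69 cells, and at day 20 they were 16, 12 and 4 of 32. The cells at either end thus outnumbered those between in each of these libraries. Of the 266 front-band cells of GFP low, 222 were in cluster 8 and 37 in cluster 3, and of the 75 others 45 were in cluster 3 and 25 in cluster 14. Since the cells were divided by these same genes, their levels are a description: Hoxb2 was found in 96.2% of the front-band cells and in 72% of the others, while Hoxb8 was found in 4.14% and 89.3%, Hoxc10 in 0 and 72%, and Hoxb1 in 24.4% and 0. Front genes differed among themselves: Hoxb3 was found in 75.2% of the front-band cells and 80% of the others, and Hoxb4 in 29.3% and 66.7%. Hoxa2 went the other way, at 69.2% and 18.7%. Cells rich in middle and rear genes thus also held front genes such as Hoxb2, Hoxb3 and Hoxb4, but few of them held Hoxa2 and none held Hoxb1. The highest-numbered group with a UMI was 3 in 114 of the 403 cells, 4 in 65, 2 in 43, 8 in 47 and 10 in 47.

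**Figure D4:**
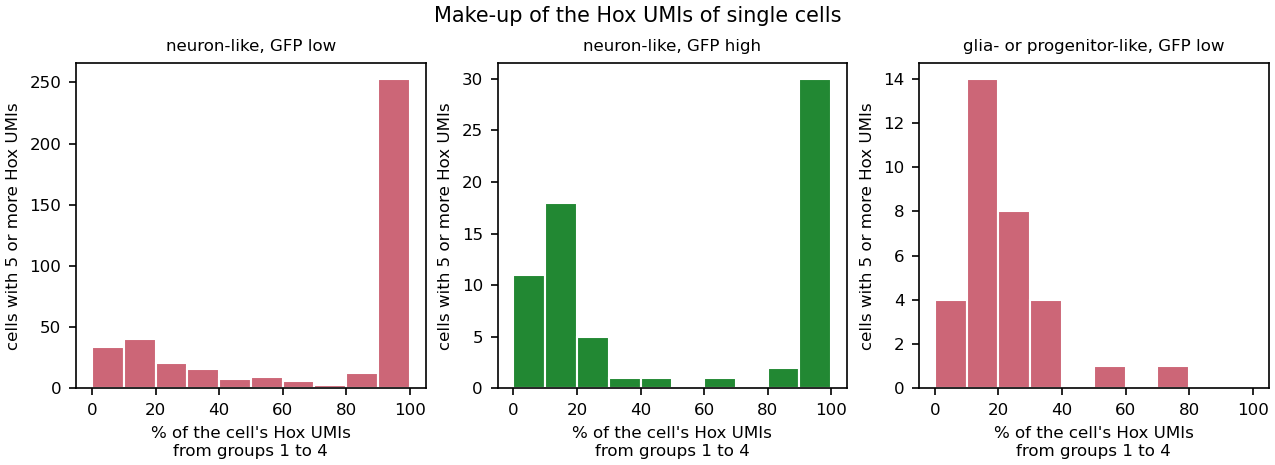
Share of a cell's Hox UMIs that came from groups 1 to 4 (x axis, percent) in cells with 5 or more Hox UMIs, as numbers of cells (y axis). Neuron-like cells of GFP low and GFP high pile up near both ends, with 266 and 32 cells at 80% or more and 75 and 29 at 20% or less. Of the 32 glia- or progenitor-like cells of GFP low, 18 lie at 20% or less and 0 at 80% or more.

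Pairs of genes were read in the 1072 neuron-like cells of GFP low that could be thinned to 3000 UMIs. Neighbours in a cluster occurred together: Hoxb9 was found in 43.5% of the 85 cells with Hoxb8 (32.8 to 54.7) and in 0.912% of the 987 cells without it (0.418 to 1.72). Hoxb8 was found in 73.8% of the 42 cells with Hoxb7 and in 5.24% of the others. Paralogues on different chromosomes did so as well. Hoxb5 was found in 51.9% of the 52 cells with Hoxa5 (37.6 to 66) and in 2.16% of the others, and Hoxc10 in 51.7% of the 29 cells with Hoxa10 and in 2.01% of the others. Hoxb9 and the distant Hoxb2 did not: Hoxb9 was found in 4.76% of the 189 cells with Hoxb2 (2.20 to 8.85) and in 4.19% of the cells without it (2.97 to 5.73). Hoxb8 was found in 12.7% of cells with Hoxb2 (8.31 to 18.3) and in 6.91% without it (5.33 to 8.79), with slightly overlapping intervals. With cells thinned to 5000 UMIs these were 16.4% (12.1 to 21.5) and 6.67% (4.99 to 8.70), which do not overlap. Over the 1072 cells, which share 1 library, Pearson's r of log counts was 0.57 for Hoxb8 with Hoxb9 and 0.00 for Hoxb2 with Hoxb9.

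Other genes differed with the Hox band inside cluster 3, where 37 front-band cells were set beside 45 others in GFP low. Their median depths were 26193 and 17807 UMIs. Genes were taken by size of ratio among those at 50 CPM or more and 30 or more UMIs. Front-band cells held Tlx1, a homeobox gene, at 609 CPM against 0, and Lhx2 at 375 against 1.24. Phox2a, which specifies noradrenergic neurons, stood at 244 against 1.24 CPM, with 99.2% of its UMIs in 10 of the 37 cells. For Tlx1 and Lhx2, 10 cells held 74.8% and 88.5%. The other cells held Nfix at 645 against 29.8 CPM, Skap1 at 463 against 9.25 and Zic1 at 88.9 against 0. For these genes 10 of the 45 cells held 87.4%, 91.7% and 68.1% of the UMIs. In GFP high, with 10 and 13 such cells, Tlx1 stood at 712 against 3.04 CPM, Lhx2 at 684 against 0, Nfix at 28.2 against 2203 and Zic1 at 0 against 191. Phox2a was at 0 in both kinds of GFP high cell, so it did not follow the same order there.

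Cells of cluster 3 in GFP low with 5 or more Hox UMIs (115) also differed from cells with none (120). Their median depths were 21024 and 12564 UMIs, so some cells with none may have been too shallow to show Hox transcripts. Those with Hox UMIs held Lbx1 at 161 against 4.96 CPM, Tlx3 at 289.6 against 22.6, Lmo2 at 125 against 7.17 and Robo3 at 195 against 14.9. Lbx1 and Tlx3 are transcription factors of dorsal hindbrain and spinal cord interneurons, and Robo3 guides commissural axons. Those without held Lhx9 at 98.1 against 0 CPM, Dbh at 83.8 against 0, Slc6a2 at 60.1 against 0 and Tfap2b at 455 against 24.8. Dbh makes noradrenaline and Slc6a2 takes it up, and all UMIs of both lay in 10 or fewer of the 120 cells. In GFP high the cells with Hox UMIs (29) again held more Lbx1 (142 against 4.27 CPM), Robo3 (520.4 against 17.1) and Lmo2 (239 against 4.27) than those without (26). Dbh and Slc6a2 were at 0 in both kinds of GFP high cell, and Tfap2b (32.4 with Hox UMIs against 0) and Lhx9 (1.47 against 0) did not keep their order there.

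In cluster 14 of GFP low, 28 cells had 5 or more Hox UMIs and 48 had none. Over the cells with none, Pcp2 stood at 534 CPM, Car8 at 625 and Calb1 at 344, and 10 of these 48 cells held all of the Pcp2 UMIs, 85.7% of those of Car8 and 95.9% of those of Calb1. In the Hox-rich cells these stood at 0, 11.9 and 2.63 CPM. The Hox-rich cells held Pax2, a gene of dorsal inhibitory interneurons, at 130.4 against 29.7 CPM and Zic1 at 259.5 against 54.0. They held Crabp1, a retinoic acid binding protein, at 1100.0 against 3.91 CPM. The richest 10 of the 28 cells for each gene held 84.8%, 90.4% and 99.2% of its UMIs in that order. Tubb3 and Slc32a1 were alike, at 2207 against 2168 and 195 against 187 CPM. The Hox-rich cells thus held few UMIs of the genes that lead the cluster, and those genes were carried by few of the cells without Hox UMIs.

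Genes of the forebrain and midbrain were set beside the Hox level in each neuron-like cluster. In cluster 3 Otx2 stood at 103 CPM on day 16, 33 CPM on day 20, 4.64 CPM with high GFP and 6.68 CPM with low GFP, while the Hox level went from 31.3 to 252, 1863 and 1303. En2 stood at 104, 58.4, 10.8 and 20.0 CPM. En1, En2 and Otx2 are midbrain and isthmus genes, and each was higher in the day 16 cells of the cluster than in its day 21 cells. In cluster 14 En1 stood at 124, 58.1, 27.4 and 26.8 CPM, and En2 at 252, 124, 6.86 and 62.6 CPM. In cluster 7 En2 stood at 219, 162, 50.3 and 124 CPM. Cluster 8 departed from this: its GFP low cells held En1 at 73.4 CPM beside a Hox level of 495, and cluster 11 held 80.6 CPM or less of En1, En2 and Otx2 together beside 55.3 CPM or less of Hox transcript.

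**Figure D5:**
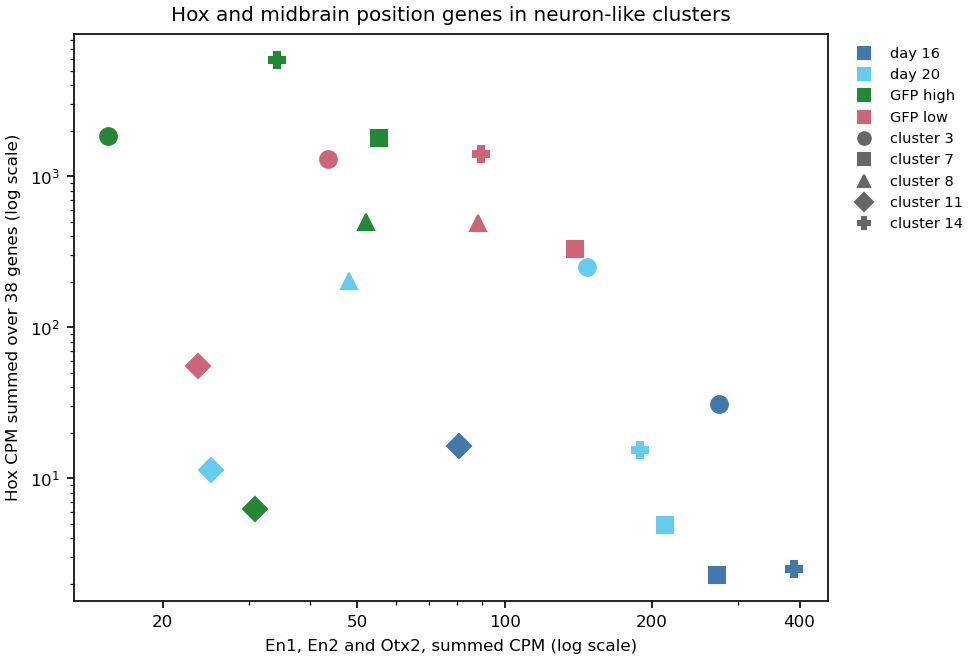
Summed CPM of En1, En2 and Otx2 (x axis) and of the 38 Hox genes (y axis), both logarithmic, in neuron-like clusters with 10 or more cells in a library (colour, library; shape, cluster). The day 16 cells of clusters 3, 7 and 14 lie at lower right, their GFP high cells lie at upper left, and cluster 11 lies low in all 4 libraries.

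Glia- or progenitor-like cells (cluster 19, with Fabp7, Gfap and Aqp4) held many rear genes. Their level was 9.26 CPM on day 16 (3.01 to 21.6), 82.8 CPM on day 20 (70 to 97.2), 763 CPM with high GFP (701 to 828) and 1502 CPM with low GFP (1434 to 1573), in 28, 141, 23 and 54 cells. Groups 9 to 13 made up 44.6% of their Hox UMIs in GFP low (42.3 to 46.9), against 16.6% in neuron-like cells (16 to 17.2) and 18.2% in epidermis-like cells. At day 20 the share was 65.1%, beside 64.9% in epidermis-like cells. At day 16 it was 1 of 5 UMIs, beside 81.2% in epidermis-like cells and 44.1% in neuron-like cells (38.7 to 49.6). A high rear share was thus not particular to this class. The day 20 values rest on few cells: 14 of 141 cells had a Hox UMI, and the richest 10 held 96.6%. The richest 10 cells held 96.8% with high GFP and 53.4% with low GFP. Hoxa10 stood at 132 CPM and Hoxc10 at 128 CPM in GFP low, and 23 of the 38 members stood at 20 CPM or more. Of the 32 cells of GFP low with 5 or more Hox UMIs, 30 had a UMI of group 9 or above. The median of those 32 cells held UMIs of 17.5 members, against 4 in neuron-like cells. Among neuron-like cells with 5 or more Hox UMIs, 105 of 403 reached group 9 or above with low GFP and 35 of 69 with high GFP. On day 20 this was 16 of 32 and on day 16 it was 6 of 9. The neuron-like share of GFP low thus does not stand for the other libraries. Of 11 markers of the class, 4 reached 20 CPM at day 20 and 8 to 10 in the other libraries. The cluster also raised 10 of 13 neuron markers, and their part in these values was not tested.

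Notochord-like cells (cluster 21, with Car3 and T, a gene needed for notochord formation) raised 3 of 5 notochord markers. Their level was 105 CPM at day 20 (88.6 to 124), 712 in GFP high (611 to 826) and 464 in GFP low (407 to 526), in 172, 13 and 28 cells. The Hoxa cluster gave 63.4%, 60.6% and 69.7% of their Hox UMIs, against 19.6% in neuron-like cells of GFP low. Hoxa7 stood at 3.62, 179 and 97.4 CPM, Hoxa5 at 13, 102 and 115 CPM, and Hoxa3 at 21.7, 40.7 and 39 CPM. Day 20 was thus led by Hoxa3 and the day 21 libraries by Hoxa7 and Hoxa5. The Hoxc cluster gave 0, 0 and 1 UMI.

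Epidermis-like cells kept a level of 44.6, 44.8, 46.4 and 55.3 CPM in the 4 libraries, and all 4 intervals overlapped. The Hoxc cluster led there, with 84.6%, 60.6%, 71.9% and 76.8% of Hox UMIs. Hoxc13, a regulator of hair keratins, stood at 34.5 CPM on day 16, 20.5 CPM on day 20, 12.7 CPM with high GFP and 7.34 CPM with low GFP. Hoxc4 stood at 2.38 CPM on day 20, 6.14 CPM with high GFP and 14.4 CPM with low GFP. The level was thus alike while the members differed, and 201 of the 219 Hoxc13 UMIs of the whole day 16 library lay in this class.

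Mesenchyme-like cells stood at 15, 11.7, 28.9 and 39.7 CPM in 946, 2054, 47 and 97 cells. The day 21 values rest on few cells: without the 10 richest cells GFP low stood at 11.8 CPM. Of 13 neuron markers, 8, 2, 10 and 1 reached 20 CPM in this class at day 16, day 20, GFP high and GFP low, with summed levels of 613, 179, 575 and 178 CPM, and their part was not tested. Thinned shares with a Hox UMI were 3.12%, 3.34%, 2.17% and 6.25%, and the last 2 rest on 1 and 6 cells. Cluster 12 of this class held Hoxb2 at 11 CPM on day 16, 12.3 CPM on day 20, 14.4 CPM with high GFP and 4.82 CPM with low GFP. Hoxd8 was at 1.10, 9.01, 10.3 and 10.9 CPM there. At day 16 the front band gave 79.3% of the Hox UMIs of mesenchyme-like cells, and at day 20 it gave 43.1%.

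The otic classes and the Ccer2-rich cells, which were named by a list of Merkel cell markers, were low. Supporting-cell-like cells had 0 Hox UMIs at days 16 and 20, which allows up to 6.05 and 16.9 CPM, and stood at 5.42 CPM in GFP high and 12.1 in GFP low. Otic-epithelium-like cells had 0 UMIs at day 16, which allows up to 3.76 CPM, and stood at 8.62, 2.86 and 6.01 CPM in the later libraries. The day 20 value is 5 UMIs from 1 of 45 cells. In GFP high 10 cells held 96.4% of the Hox UMIs of this class and 96.7% of those of supporting-cell-like cells. Ccer2-rich cells stood at 8.71, 7.04, 26 and 24.4 CPM, in 445, 813, 67 and 143 cells. Hoxc4 and Hoxb2 led them in GFP low, at 4.96 and 4.06 CPM. After thinning, 2.29%, 2.12%, 5.97% and 4.96% of Ccer2-rich cells had a Hox UMI, and in 3 libraries the interval overlapped that of hair-cell-like cells. In GFP high it did not (1.65 to 14.6 against 0.677 to 1.54), and there the Ccer2-rich cells held the neuron markers at a summed 5115 CPM, against 1797 to 2421 in the other libraries; their part was not tested. In hair-cell-like cells no member reached 4 CPM in any library. Pluripotent-like cells, 89 of 102 of them in GFP low, stood at 37.9 CPM there (33.7 to 42.6), with a median depth of 81489 UMIs per cell.

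Partners and regulators of Hox genes were read as lists. Of 9 cofactors (PBX, MEIS and PKNOX genes), 0 were higher and 0 lower in neuron-like cells in either comparison, while over all cells 3 were lower in GFP high and 3 at day 20. Pbx3 stood at 24.8 CPM in GFP high and 85.1 in GFP low over all cells, and at 127 and 243 CPM in neuron-like cells. Meis1 stood at 10.8 and 37.3 CPM over all cells. Of 16 chromatin regulators of Hox loci, 1 was lower over all cells in each comparison; in GFP high it was Ezh2, the histone methyltransferase of Polycomb, at 46.7 against 105 CPM. Of 17 regulators of Hox onset, 1 was higher and 5 were lower in GFP high over all cells. The higher gene was Fgf8, a growth factor of the midbrain and hindbrain border among other sites, at 122 against 36.3 CPM. Neuron-like cells held Fgf8 at only 6.58 against 1.57 CPM, so most of its UMIs came from other classes. Over all cells, 17% of genes at 5 CPM or more were called in either direction between the GFP gates and 13% between the days.

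Position genes of forebrain and midbrain were lower at day 20 than at day 16 in 9 of 12 cases and higher in 0 over all cells. There 7.50% of genes at 5 CPM or more were lower. Some of the 9 lay below that level, such as Otx1 at 0.355 against 0.727 CPM and Dmbx1 at 0.426 against 2.46. In neuron-like cells 7 of 12 were lower, where 4.35% of genes at 5 CPM or more were. The median log2 ratio of the 12 was -1.02, against -0.02 over all genes at that level. Lhx2 stood at 47.7 CPM at day 20 and 237 at day 16 in these cells, Emx2 at 2.95 and 20.6, and Barhl2 at 6.79 and 33.4. Lhx2 was not confined to cells without Hox transcripts, so its level alone does not tell position. Front-band cells of cluster 3 held it at 375 CPM in GFP low and 684 in GFP high. Between the GFP gates 4 were higher and 4 lower in neuron-like cells, where 4.29% of genes at 5 CPM or more were higher and 2.43% lower. En1 stood at 9.29 CPM in GFP high and 37.4 in GFP low, and Lhx2 at 381 and 138 CPM. Several calls lay at low levels. Six6 among the higher stood at 1.74 against 0 CPM. Among the lower, Otx1 stood at 0 against 1.12 CPM, Six3 at 0 against 1.81 and Dmbx1 at 0.193 against 1.89. All 10 other measured transcripts of the Hox loci were lower in GFP high than in GFP low over all cells. Of genes at 5 CPM or more, 9.93% were lower there. Among the 10, only Hotairm1 and Hoxb3os reached that level, at 5.74 and 13.4 CPM in GFP low, so the others are not at a like level. In neuron-like cells 2 were higher and 2 lower, with Hoxb5os at 20.5 against 8.59 CPM among the higher and Hotairm1 at 4.84 against 9.95 CPM among the lower.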

How the data were processed

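For each of the 4 libraries the authors deposited a matrix of raw UMI counts, without normalisation, per the file headers and the values. Tables were written by Cell Ranger 6.1.2 per the file headers; the submitters' processing notes name Cell Ranger 6.1.0, Seurat 4.0.6 and build mm10. The labels' description speaks of single nuclei, their protocol of cells. No source used here states the gene annotation or whether strand was used.

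Barcodes with fewer than 1000 genes or more than 15% mitochondrial UMIs were left out, and doublets were removed by Scrublet score (scanpy 1.11.5) at 0.8% per 1000 barcodes (120, 205, 109 and 137 cells). Cells were clustered together (2000 variable genes without Hox loci, 30 components, 20 neighbours, leidenalg 0.10.2, resolution 1). A marker was raised at 4 times the median cluster's CPM, after 5 CPM was added to each. A cluster was named where 50% of a list's markers and at least 3 were raised; this rule was set after the clusters were seen. Exact intervals were Poisson for CPM of summed counts, conditional binomial for ratios and Clopper-Pearson for shares of cells. Counting was checked on simulated data. A count of 0 allows up to 3 counts at library level. Thinning to 3000 UMIs dropped 333, 556, 31 and 92 cells with fewer. An alternative scaling took TMM factors from edgeR 4.0.16, which was used for no test. Genes in all libraries are the 12 members with the highest CPM in any library; other members are named where a class holds them at 20 CPM or more, or as examples chosen after their values were seen, as were the genes set beside the Hox bands inside clusters. Coordinates are GRCm38 (mm10), from GENCODE M21 and RefSeq; all 38 members matched GENCODE M21 by identifier. Members and lists were chosen with earlier results of these data known. The rule matched 39 genes, of which 38 are described and 1 is not reported here. Scripts ran in R 4.3.3 and Python 3.11.15 with pandas 2.3.3, scipy 1.17.1 and numpy 2.4.6.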

Additional observations from a re-analysis of the deposited data

How the results depend on the processing

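No paired analysis was possible because each group is 1 library. Each choice was varied on its own, and 99 of 146 recomputed summary values kept their size. Counts of members in GFP high against GFP low over all cells went from 29 lower to 16 at a ratio of 3 and to 12 with a minimum of 5 CPM. In neuron-like cells 16 higher became 6 at a ratio of 3 and 0 without the 10 richest cells of each member, and 2 lower became 4 at a ratio of 1.5 and 10 without those cells. For day 20 against day 16 over all cells, 23 higher became 1 and 3 lower became 0 with the minimum of 5 CPM, and 14 and 1 without the richest cells; in neuron-like cells 25 higher became 8 and 3. Summed levels as a mean of per-cell CPM were 14.5, 30.7, 83.8 and 242 at day 16, day 20, GFP high and GFP low, and GFP low over all deposited barcodes was 201. Without the 10 cells richest in Hox UMIs, an alternative chosen after seeing the data, the libraries were at 10.9, 24.6, 46.6 and 185 CPM, neuron-like cells at 3.03, 46.8, 682 and 543, mesenchyme-like cells at 10.8 (day 16) and 11.8 (GFP low) and hair-cell-like cells at 2.19 (GFP high) and 4.26 (GFP low). Neuron-like cells at resolution 2 were at 96.4 (day 20) and 629 CPM (GFP low), gated by marker UMIs at 88.8 (day 20) and 958 (GFP high), and with doublets kept at 601 (GFP low). Hair-cell-like cells gated by markers were at 6.59 and 10.3 CPM in GFP high and GFP low, and with doublets kept at 8.68 and 28.8, the largest shift of that class. Groups 9 to 13 made up 45.8%, 25.6%, 28.2% and 19.9% of summed Hox UMIs, and 41.3%, 19%, 22.1% and 15.7% as a mean over cells. The share of neuron-like cells with a Hox UMI was 5.01%, 9.31%, 39.7% and 53.2% without thinning, and 43.7% in GFP low at 5000 UMIs. Of 247 recomputed ratios of named members, 0 called ones changed direction and 40 left their counting interval, 27 of them without the richest cells. The causes of these shifts were not tested. Depth limits the low members: 2 members had 0 UMIs at day 16.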
